A study of Schmidtea mediterranea with 24 samples.

Results

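Inhibition of nkx1-1 and inhibition of myoD were set against each other in intact planarians, to ask which transcripts responded to one treatment differently from the other. The measure was a difference of differences: the change after nkx1-1 RNA interference (RNAi) relative to its own controls, minus the change after myoD RNAi relative to its own controls. All 24 of the 24 libraries in the series enter it. They are 7 animals fed double-stranded RNA (dsRNA) of nkx1-1 12 times in 9 weeks, 5 control animals fed on the same 12-feeding schedule, 6 animals fed dsRNA of myoD 10 times in 7 weeks, and 6 control animals on that 10-feeding schedule. All were asexual Schmidtea mediterranea of the strain CIW4, the dsRNA was given in liver, and controls ate dsRNA of the Caenorhabditis elegans gene unc-22, a worm sequence. Polyadenylated RNA was sequenced, and the title, design text and tissue label describe 1 intact animal per library. The extraction text of the same records speaks of pooled wounds in tail fragments. If libraries were such pools, what is called an animal below would be a pool.

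Planarians renew all tissues from dividing stem cells called neoblasts, so weeks of RNAi change a tissue as its cells are replaced. Their body-wall muscle is laid down in fibres of several orientations and also produces many of the signals that tell cells where they are in the body. In planarians myoD encodes a transcription factor needed for longitudinal muscle fibres, and nkx1-1 one needed for circular fibres, so both treatments act on the same tissue through different fibre classes. Whole animals were sequenced, so fewer cells of a type and less RNA per cell cannot be told apart.

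Expression was deposited as read counts per contig, an assembled transcript sequence. No gene names for the contig IDs were used here, so no ID below carries a name or role, the targeted genes were not identified, and markers of muscle or other cell types were not run. Values are counts per 1e6 counts of a library (CPM), scaled over all 24 libraries. Total counts were 9757113 to 18136698 per library. One 12-feeding control and 1 nkx1-1 RNAi animal stood apart. On the first principal component over the 500 most variable contigs, with 52.5% of their variance, 12-feeding control replicate 3 lay at 10.8, next to the 12 libraries of the 10-feeding schedule (11.4 to 19.8) and away from the other 11 of its own schedule (−25.5 to −10.2). In nkx1-1 RNAi replicate 1 the contig dd_Smed_v4_4_1_1 took 6.79% of counts, against 0.0393% to 0.781% in the other libraries.

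A difference between the effects of nkx1-1 and myoD RNAi was called for few contigs. Of 17159 contigs tested, 73 had a called difference, meaning a Benjamini-Hochberg adjusted p under 0.05 in edgeR's quasi-likelihood test. This is 0.425% of those tested. In separate fits of the 12 libraries of each schedule, 643 of 16598 contigs (3.87%) were called after nkx1-1 RNAi and 1232 of 16352 (7.53%) after myoD RNAi. The order of these counts depends on the fit: with all 24 libraries in 1 fit, as for the difference, 1849 contigs were called after nkx1-1 RNAi and 1034 after myoD RNAi. The separate fits gave 297 higher (1.79%) and 346 lower (2.08%) after nkx1-1 RNAi, and 844 higher (5.16%) and 388 lower (2.37%) after myoD RNAi. The nkx1-1 balance turned to 519 higher and 428 lower without nkx1-1 RNAi replicate 1, and to 436 higher and 312 lower without both libraries that stood apart. Over the 12 fits that left out 1 library it spanned 104 to 519 higher and 110 to 436 lower. The difference was positive, with the nkx1-1 effect above the myoD effect, for 29 contigs (0.169%) and negative for 44 (0.256%). This balance was not stable: negative calls ranged from 23 to 99 and positive calls from 21 to 46 when 1 library was left out. Negative calls outnumbered positive ones in 18 of those 24 fits, the numbers were equal in 3, and positive calls were more in 3: 27 against 23 without myoD RNAi replicate 1, 25 against 23 without 10-feeding control replicate 5, and 27 against 26 without 12-feeding control replicate 5. Its size was 0.69 on the log2 scale at the median of the 73 and ranged from 0.25 to 5.47. At least 2-fold differences were called for 22 contigs (0.128%), 10 positive and 12 negative. The 73 contigs came from 73 separate assembly components and were of ordinary abundance, with a median of 23.0 CPM against 12.8 CPM over all contigs tested. At an unadjusted p under 0.05 in the same test there were 2216 contigs (12.9%), so the lack of a call does not show equal effects.

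The count of called differences depended on single libraries and on the tool. Leaving out nkx1-1 RNAi replicate 1 gave 132 calls and leaving out replicate 2 of that group gave 136. The count was 46 without myoD RNAi replicate 3 and 48 without 12-feeding control replicate 4 or 10-feeding control replicate 5. Of the 73 contigs, 37 were called in each of the 24 fits that left out 1 library, 16 of them with a difference of at least 2-fold. Without both libraries that stood apart 104 contigs were called, 33 positive and 71 negative, and 68 of the 73 were among them with the same sign. DESeq2 called 156, with 72 of the 73 among them. Number of feedings, weeks of treatment and cohort go with the targeted gene and cannot be told apart from it.

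Animals behaved alike in most of the 73 contigs. Each RNAi animal's log2 CPM was set against the mean of its own controls, and for 68 of the 73 the deviations of the 7 nkx1-1 animals did not overlap with those of the 6 myoD animals. Over all 17159 contigs this held for 734, or 4.28%. The nkx1-1 animals lay above in 27 of the 68, against 427 (2.49%) of all contigs, and below in 41, against 307 (1.79%) of all contigs. The test for a difference favours such contigs, so the share among the 73 is a description.

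The 73 contigs fell into 5 patterns, by which of the separate effects was called in its own fit. The patterns are bound to the calls of those fits, and the nkx1-1 calls moved with single libraries: 643 became 947, 755, 466, 412, 352, 332 and 391 when nkx1-1 RNAi replicates 1 to 7 were left out in turn. Leaving out 12-feeding controls 1 to 5 in turn gave 578, 325, 448, 214 and 391. For 32 the nkx1-1 effect alone was called, for 30 the myoD effect alone, for 5 both in opposite directions, for 2 both in the same direction, and for 4 neither. In all, the estimates of both effects had opposite signs in 47 of the 73 and the same sign in 26. The test for a difference favours contigs with opposite signs, so this split is a description. The share over all contigs was not counted. In the authors' deposited tables, 31 of the 73 had an adjusted p under 0.05 for nkx1-1 RNAi and 34 for myoD RNAi, 6 of them for both and 14 for neither. Those values rest on the same libraries, and the 73 were chosen by a contrast that holds both effects. The counts are thus a description and no separate support, and the shares over all contigs were not counted.

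**Figure D1:**
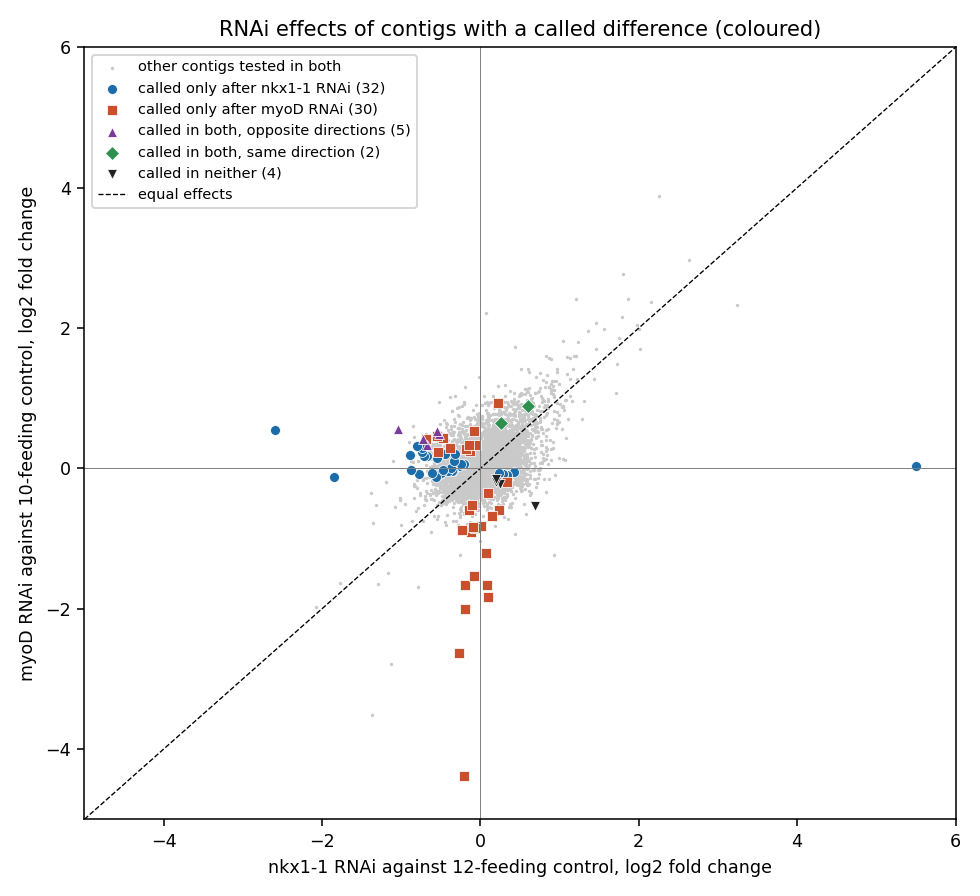
Log2 fold change after nkx1-1 RNAi (horizontal) and after myoD RNAi (vertical), each against its own controls, for contigs tested in both; coloured symbols are the 73 contigs with a called difference, by which effect was called, and the dashed line marks equal effects. Contigs called only after myoD RNAi run down the vertical axis to −4.39, and 1 contig called only after nkx1-1 RNAi lies far right at 5.50.

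Falls after myoD RNAi without a called fall after nkx1-1 RNAi made up 19 of the 29 positive differences. Of the 30 contigs whose myoD effect alone was called, 19 had fallen after myoD RNAi, with a median myoD effect of −0.88 and a range of −4.39 to −0.20 on the log2 scale. Their nkx1-1 effects lay between −0.27 and 0.33, with a median of −0.08, and 8 of the 19 were positive. The differences had a median of 0.84, and 8 were at least 2-fold. The median deviation of the 19 contigs in each animal lay between −1.08 and −0.75 in myoD RNAi animals, against −0.07 to 0.07 in their controls, and between −0.16 and 0.10 in nkx1-1 RNAi animals, against −0.06 to 0.18 in theirs. All 6 myoD RNAi animals thus shared the fall, a description, since the contigs were chosen for it. These contigs were of low abundance, with a median of 6.53 CPM.

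The contig dd_Smed_v4_12634_0_1 had 0.200, 0.429 and 1.02 CPM (lowest, median and highest) in the 6 myoD RNAi animals, against 9.74, 11.2 and 11.55 CPM in the 6 controls of the 10-feeding schedule. It had 7.00, 9.17 and 10.1 CPM in the 7 nkx1-1 RNAi animals, against 8.70, 10.0, 10.5, 10.8 and 11.4 CPM in the 5 controls of the 12-feeding schedule. The highest myoD RNAi animal was thus below every other library, while nkx1-1 animals and their controls overlapped. The effect was −0.20 ± 0.09 (SE; edgeR adjusted p = 0.235) after nkx1-1 RNAi and −4.39 ± 0.18 (SE; edgeR adjusted p = 6.22e-11) after myoD RNAi. Subtracted, these gave 4.19 on the log2 scale (95% interval 3.75 to 4.64; edgeR adjusted p = 4.61e-13). Of the 19 contigs named here, it had the smallest adjusted p for the difference. It rested on 3 to 16 counts in the myoD RNAi libraries and 80 to 198 in those of the 12-feeding schedule.

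The next contig in this set, dd_Smed_v4_18181_0_1, had 0.319, 0.794 and 1.59 CPM in myoD RNAi animals, against 4.62, 4.71 and 5.59 CPM in their controls. It had 2.35, 2.90 and 3.61 CPM in nkx1-1 RNAi animals, against 3.003, 3.34, 3.51, 3.75 and 4.31 CPM in theirs. Only the myoD pair was separated without overlap. The controls of both schedules themselves differed, with 3.58 ± 0.489 CPM (SD, n = 5) at 12 feedings and 4.90 ± 0.387 CPM (SD, n = 6) at 10 feedings, with edgeR putting the log2 difference at −0.46 ± 0.11 (SE; adjusted p = 0.00500). The difference of the RNAi effects was 2.37 (95% interval 1.82 to 2.91; edgeR adjusted p = 4.84e-06).

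Rises after myoD RNAi gave the other 11 contigs with only the myoD effect called. Their myoD effects ranged from 0.24 to 0.94 with a median of 0.34, and 10 of the 11 had a negative nkx1-1 estimate, with a median of −0.18. Both contigs named here were lower in nkx1-1 RNAi animals on average, without a call. The contig dd_Smed_v4_15156_0_1 had 2.24, 3.22 and 5.09 CPM in nkx1-1 RNAi animals, against 3.78, 5.20, 5.47, 6.06 and 6.75 CPM in their controls. It had 6.00, 7.57 and 8.84 CPM in myoD RNAi animals, against 4.36, 5.56 and 6.90 CPM in theirs. Both pairs overlapped at their edges, the nkx1-1 pair through control replicate 3 alone, at 3.78 CPM. By edgeR, the nkx1-1 estimate was −0.68 ± 0.19 (SE; adjusted p = 0.0522) and the myoD effect 0.42 ± 0.12 (SE; adjusted p = 0.0345). Their difference was −1.10 (95% interval −1.56 to −0.63; edgeR adjusted p = 0.0217). In 3 of 32 alternatives this call was lost, 2 of them fits without 1 library. These left out 12-feeding control replicate 4 (edgeR adjusted p = 0.0532) or 5 (edgeR adjusted p = 0.0582). The contig dd_Smed_v4_851_0_1 had 9.52, 14.9 and 17.0 CPM in nkx1-1 RNAi animals, against 10.9, 20.6, 21.4, 22.2 and 28.6 CPM in their controls. The control at 10.9 CPM was replicate 3, the library that lay with the other schedule. In myoD RNAi animals it had 21.9, 26.6 and 33.1 CPM, against 17.3, 20.4 and 22.4 CPM in their controls. Its difference was −1.002 (95% interval −1.43 to −0.57; edgeR adjusted p = 0.0221), and −1.16 without the 2 libraries that stood apart. The call was lost in 7 of 32 alternatives, with adjusted p up to 0.188, 5 of them fits without 1 library. These were 12-feeding control replicate 1 (−0.85; edgeR adjusted p = 0.0520) or 4 (adjusted p = 0.0532), myoD RNAi replicate 1 (0.0562) or 3 (0.0553), and 10-feeding control replicate 5 (0.0549).

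Falls after nkx1-1 RNAi without a called fall after myoD RNAi were found for 26 contigs. The number of contigs with only the nkx1-1 effect called ranged from 15 (without 12-feeding control replicate 4) to 77 (without nkx1-1 RNAi replicate 2), against 20 to 43 with only the myoD effect called. Among contigs called in each of the 24 fits that left out 1 library, 15 had only the nkx1-1 effect called and 16 only the myoD effect. Of the 32 contigs whose nkx1-1 effect alone was called, 26 had fallen, by a median of 0.53 on the log2 scale and up to 2.59. Their myoD estimates lay between −0.13 and 0.55, with a median of 0.05, and 15 of the 26 were positive. The median deviation of the 26 contigs in each animal lay between −0.60 and −0.30 in nkx1-1 RNAi animals, against −0.06 to 0.06 in their controls, and between −0.02 and 0.06 in myoD RNAi animals, against −0.07 to 0.09 in theirs. These values are a description, since the contigs were chosen for the fall. The 26 contigs had a median of 28.0 CPM. Most of the differences were moderate, and 5 of the 26 were at least 2-fold.

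The contig dd_Smed_v4_26182_0_1 had the largest negative difference among the contigs that passed the naming rule. It had 0.124, 0.216 and 0.424 CPM in nkx1-1 RNAi animals, against 0.900, 1.19, 1.70, 1.82 and 2.14 CPM in their controls. In myoD RNAi animals it had 1.59, 2.52 and 2.58 CPM, against 1.32, 1.40 and 2.39 CPM in their controls. The nkx1-1 animals were all below the other libraries, whereas the myoD animals and their controls overlapped. The effect was −2.59 ± 0.30 (SE; edgeR adjusted p = 0.000397) after nkx1-1 RNAi and 0.55 ± 0.17 (SE; edgeR adjusted p = 0.0625) after myoD RNAi. Their difference was −3.13 (95% interval −3.83 to −2.43; edgeR adjusted p = 4.17e-06). This contig was rare, with 2 to 6 counts in the nkx1-1 RNAi libraries and 12 to 37 in their controls. The authors' deposited tables gave it fold changes of 0.171 after nkx1-1 RNAi and 1.46 after myoD RNAi.

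The contig dd_Smed_v4_15058_0_1 had 0.361, 0.558 and 0.658 CPM in nkx1-1 RNAi animals, against 1.46, 1.65, 1.88, 1.99 and 2.54 CPM in their controls. It had 1.13, 1.86 and 3.32 CPM in myoD RNAi animals, against 1.78, 2.21 and 3.32 CPM in theirs. The difference of the effects was −1.71 (95% interval −2.40 to −1.02; edgeR adjusted p = 0.0153), on 4 to 12 counts in the nkx1-1 RNAi libraries.

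Rises after nkx1-1 RNAi accounted for the remaining 6 contigs of this pattern, and 1 of them stood far from the rest. The contig dd_Smed_v4_19327_0_1 had 75.7, 92.1 and 176 CPM in nkx1-1 RNAi animals, against 2.19, 2.25, 2.37, 2.55 and 2.92 CPM in their controls. It had 1.51, 2.55 and 3.89 CPM in myoD RNAi animals, against 2.21, 2.49 and 3.55 CPM in theirs. Nkx1-1 RNAi animals therefore lay far above all other libraries, and the myoD pair overlapped throughout. By edgeR the effect was 5.50 ± 0.25 (SE; adjusted p = 3.21e-09) after nkx1-1 RNAi and 0.04 ± 0.19 (SE; adjusted p = 0.951) after myoD RNAi. Subtracted, they gave 5.47 (95% interval 4.67 to 6.26; edgeR adjusted p = 5.67e-10). This is a 44.2-fold difference between the effects. The highest of the nkx1-1 RNAi animals, at 176 CPM, was replicate 1, and without both libraries that stood apart the difference was 5.37.

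The other 5 rises were small, and dd_Smed_v4_2477_0_1 was the largest of them by its difference. It had 28.0, 31.9 and 35.8 CPM in nkx1-1 RNAi animals, against 19.2, 24.02, 24.4, 26.5 and 26.6 CPM in their controls. It had 15.0, 17.1 and 18.2 CPM in myoD RNAi animals, against 17.2, 17.6 and 17.7 CPM in theirs. The difference of the effects was 0.48 (95% interval 0.28 to 0.68; edgeR adjusted p = 0.0217). In edgeR its controls differed about as much on the log2 scale, by 0.46 ± 0.07 (SE; adjusted p = 0.000271), higher at 12 feedings.

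**Figure D2:**
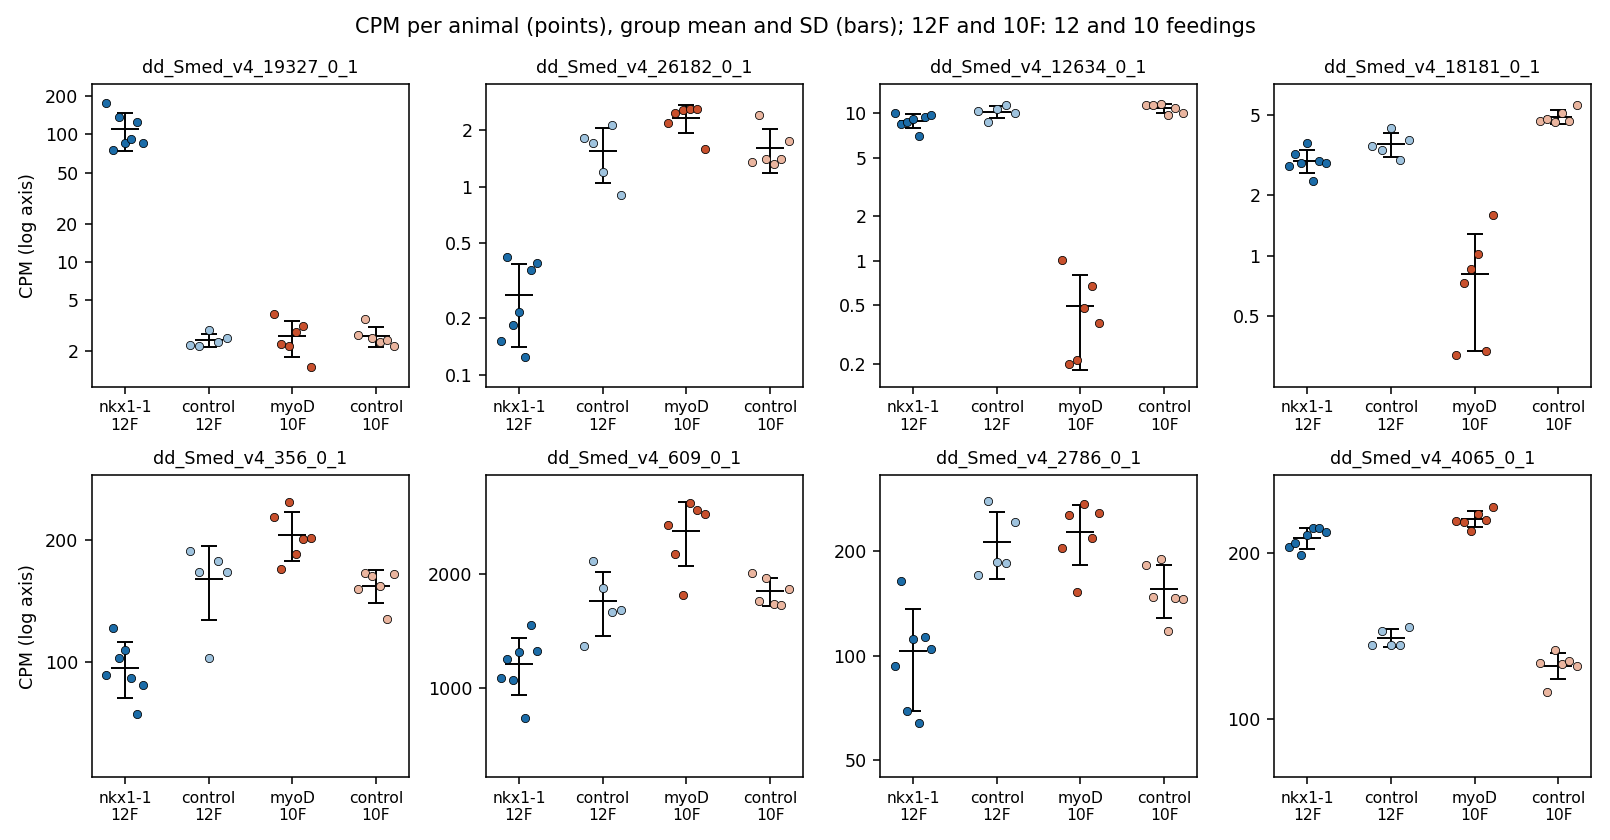
CPM per animal (points, log axis) of 8 contigs in nkx1-1 RNAi animals and controls after 12 feedings (12F) and in myoD RNAi animals and controls after 10 feedings (10F), with group means and SDs. Contig dd_Smed_v4_19327_0_1 is high in nkx1-1 RNAi animals (111 CPM on average against 2.46 CPM in their controls), dd_Smed_v4_12634_0_1 is low in myoD RNAi animals, and dd_Smed_v4_356_0_1, dd_Smed_v4_609_0_1 and dd_Smed_v4_2786_0_1 move in opposite directions.

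Opposite responses were called for 5 contigs, each lower after nkx1-1 RNAi and higher after myoD RNAi. No contig was called in the reverse combination. The difference of each of the 5 was called in every fit that left out 1 library, while the number of contigs with opposite calls ranged from 3 to 9 in those fits. All 5 differences were at least 2-fold. They were abundant, with means of 136 to 1793 CPM over all libraries. Their nkx1-1 effects had a median of −0.68 (−1.05 to −0.53) and their myoD effects a median of 0.49 (0.33 to 0.56).

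The contig dd_Smed_v4_2786_0_1 had 63.9, 104 and 164 CPM in nkx1-1 RNAi animals, against 170.0, 184, 186, 241 and 279 CPM in their controls. In myoD RNAi animals it had 152, 236 and 273 CPM, against 118, 147 and 190.1 CPM in their controls. The nkx1-1 pair was separated and the myoD pair overlapped. Its effects were −1.05 ± 0.19 (SE; edgeR adjusted p = 0.00870) after nkx1-1 RNAi and 0.56 ± 0.12 (SE; edgeR adjusted p = 0.00713) in the myoD experiment, and subtraction gave −1.59 (95% interval −2.10 to −1.08; edgeR adjusted p = 0.00113). The controls also differed, by 0.46 ± 0.13 (SE; edgeR adjusted p = 0.0139), higher at 12 feedings.

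The contig dd_Smed_v4_356_0_1 had 74.6, 93.1 and 121 CPM in nkx1-1 RNAi animals, against 103, 167, 167, 178 and 188 CPM in their controls. In myoD RNAi animals it had 169.9, 201 and 247 CPM, against 128, 158 and 165 CPM in their controls. Here the myoD pair was separated, and the nkx1-1 pair overlapped through control replicate 3 alone, at 103 CPM. The difference was −1.14 (95% interval −1.48 to −0.80; edgeR adjusted p = 0.000451), and −1.27 without the 2 libraries that stood apart. The same control animal was the low one for dd_Smed_v4_940_0_1, which had 113, 150.0 and 187 CPM in nkx1-1 RNAi animals, against 159.9, 245, 248, 268 and 271 CPM in their controls. That contig had 277, 306 and 365 CPM in myoD RNAi animals, against 203, 250.4 and 283 CPM in theirs, and its difference was −1.001 (95% interval −1.32 to −0.68; edgeR adjusted p = 0.00115).

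In the other contigs of the 5, another animal was the low one of its group. The contig dd_Smed_v4_609_0_1, the most abundant of the 5, had 834, 1198 and 1466 CPM in nkx1-1 RNAi animals, against 1289.9, 1589, 1611, 1834 and 2162 CPM in their controls. It had 1766, 2785 and 3075 CPM in myoD RNAi animals, against 1658, 1759 and 2018 CPM in theirs. The lowest of these myoD RNAi animals was replicate 3, which was also the lowest for dd_Smed_v4_515_0_1 and dd_Smed_v4_2786_0_1. The contig dd_Smed_v4_515_0_1 had 60.4, 92.8 and 104 CPM in nkx1-1 RNAi animals, against 104, 107, 119, 135 and 157 CPM in their controls. It had 141, 212 and 236 CPM in myoD RNAi animals, against 128, 139 and 160.4 CPM in theirs. Differences were −1.08 (95% interval −1.45 to −0.71; edgeR adjusted p = 0.00231) for dd_Smed_v4_609_0_1 and −1.01 (−1.37 to −0.65; edgeR adjusted p = 0.00389) for dd_Smed_v4_515_0_1. Taking the median deviation of the 5 contigs in each animal, the nkx1-1 RNAi animals ranged from −1.003 to −0.37 and their controls from −0.24 to 0.35 on the log2 scale. The myoD RNAi animals ranged from −0.01 to 0.66 and their controls from −0.12 to 0.17, with myoD RNAi replicate 3 at the low end of its group. That animal was the highest of its group for dd_Smed_v4_356_0_1 (247 CPM) and dd_Smed_v4_940_0_1 (365 CPM). These ranges are a description, since the 5 contigs were chosen for opposite calls.

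**Figure D3:**
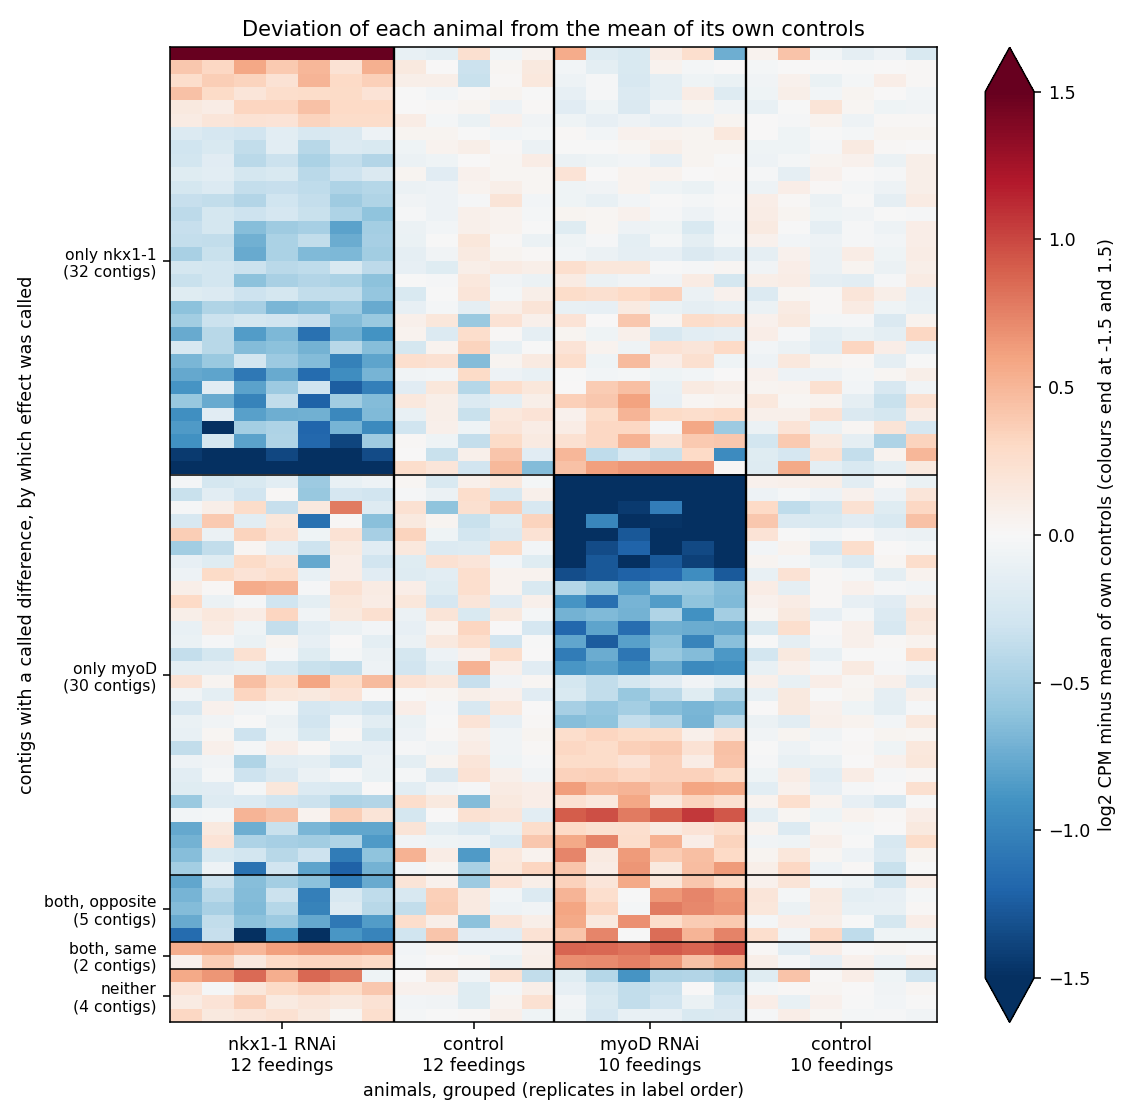
Deviation of log2 CPM from the mean of the animal's own controls (colour, ending at −1.5 and 1.5) for the 73 contigs with a called difference (rows, by which effect was called) in all 24 animals (columns, by group). The 26 falls after nkx1-1 RNAi and the 19 falls after myoD RNAi form separate blue blocks in 1 treated group each, and the 5 opposite contigs are blue in nkx1-1 and red in most myoD RNAi animals. The contigs were chosen for these differences, so the blocks are a description.

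Both effects were called in the same direction for 249 contigs, 191 higher and 58 lower, and the difference was called for 2 of them. That is 0.803%, near the 0.425% over all contigs tested, so the count says nothing particular about shared responses. The difference was at a median of 0.11 in size among the 249, with 24 (9.64%) at an unadjusted p under 0.05, against 12.9% of all contigs tested. Its 95% interval lay within 2-fold either way for 229 of the 249. Of all 17159 contigs tested, 15127 (88.2%) met the same bound, so this count is a description. Both contigs with a called difference rose more after myoD RNAi. The contig dd_Smed_v4_4065_0_1 had 199, 216 and 222 CPM in nkx1-1 RNAi animals, against 136, 137, 137, 145 and 147 CPM in their controls. It had 219.7, 229 and 242 CPM in myoD RNAi animals, against 112, 126 and 133 CPM in theirs, so both pairs were separated. By edgeR the rises were 0.60 ± 0.05 (SE; adjusted p = 1.28e-05) after nkx1-1 RNAi and 0.89 ± 0.04 (SE; adjusted p = 3.41e-10) after myoD RNAi. Their difference was −0.28 (95% interval −0.41 to −0.15; edgeR adjusted p = 0.0346). Its controls differed as well, by 0.17 ± 0.05 (SE; edgeR adjusted p = 0.0189), higher at 12 feedings. The contig dd_Smed_v4_4282_0_1 had 81.5, 95.6 and 101 CPM in nkx1-1 RNAi animals, against 72.7, 76.7, 78.2, 79.2 and 83.2 CPM in their controls. It had 98.6, 116 and 123 CPM in myoD RNAi animals, against 66.7, 73.5 and 77.1 CPM in theirs. Only the myoD pair was separated, and subtraction gave −0.37 (95% interval −0.54 to −0.21; edgeR adjusted p = 0.0285). Leaving out 1 library took the adjusted p of the difference to 0.05 or more in 12 of 24 fits for dd_Smed_v4_4065_0_1 and in 9 of 24 for dd_Smed_v4_4282_0_1.

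In 4 contigs the difference was called although neither effect was, with estimates above 0 after nkx1-1 RNAi and below 0 after myoD RNAi. The contig dd_Smed_v4_8664_0_1 had 23.1, 25.6 and 28.1 CPM in nkx1-1 RNAi animals, against 21.6, 22.2, 22.4, 22.7 and 23.8 CPM in their controls. It had 20.3, 21.5 and 23.1 CPM in myoD RNAi animals, against 23.3, 23.8 and 25.8 CPM in theirs. Its difference of 0.36 (95% interval 0.21 to 0.50; edgeR adjusted p = 0.0152) was called in each of the 24 fits that left out 1 library. For dd_Smed_v4_12053_0_1 the difference was 0.48 (95% interval 0.27 to 0.69; edgeR adjusted p = 0.0250), and for dd_Smed_v4_10577_0_1 it was 0.40 (0.22 to 0.59; edgeR adjusted p = 0.0432). The rarest, dd_Smed_v4_14095_0_1, averaged 1.03 ± 0.223 CPM in nkx1-1 RNAi animals (SD, n = 7) against 0.631 ± 0.120 CPM in their controls (SD, n = 5), and 0.709 ± 0.127 CPM in myoD RNAi animals against 1.05 ± 0.217 CPM in theirs (SD, n = 6 each). Its difference was 1.24 (95% interval 0.67 to 1.81; edgeR adjusted p = 0.0486), with 6 to 21 counts per library. The controls of dd_Smed_v4_14095_0_1 differed too, by −0.70 ± 0.21 (SE; edgeR adjusted p = 0.0176), lower at 12 feedings. The other 3 lost the call in 5 (dd_Smed_v4_12053_0_1), 16 (dd_Smed_v4_10577_0_1) and 16 (dd_Smed_v4_14095_0_1) of those fits. Of these 4, only dd_Smed_v4_8664_0_1 was still called without both libraries that stood apart, where the adjusted p of the others was 0.0553, 0.0631 and 0.0610.

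**Figure D4:**
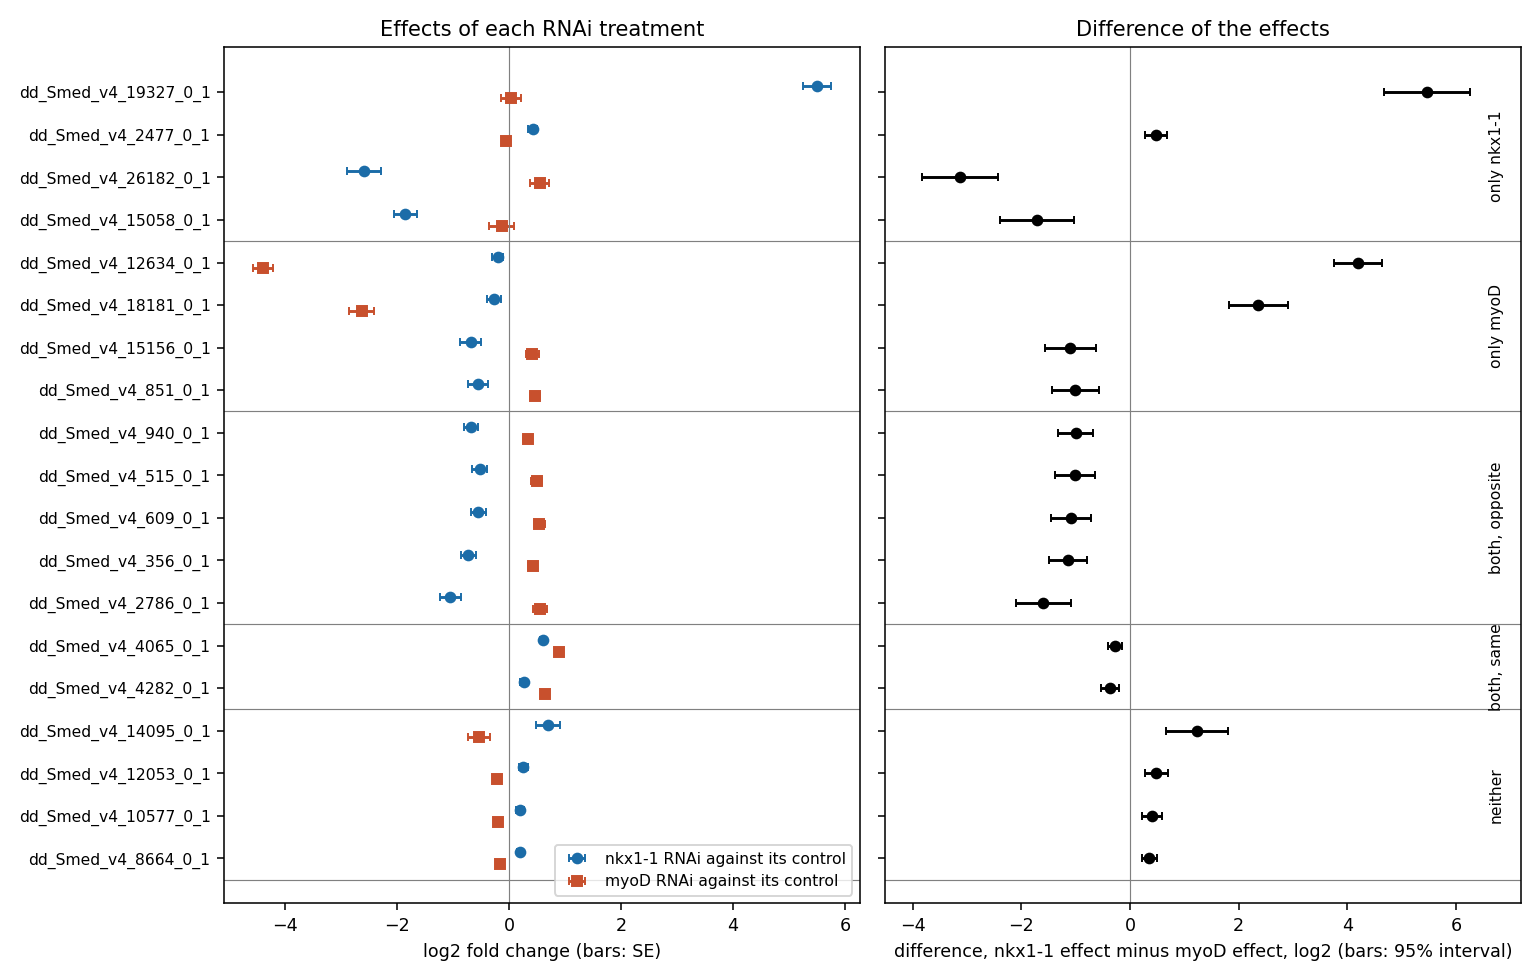
Left, log2 fold changes with SE of the 19 named contigs after nkx1-1 RNAi (circles) and after myoD RNAi (squares), each against its own controls; right, the difference of the effects with its 95% interval, with the pattern of called effects at the edge. Differences run from −3.13 to 5.47, and the 5 contigs with opposite calls have circles left of 0 and squares right of 0.

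Changes of at least 2-fold were followed from each treatment into the other. The lists were chosen by an effect that enters the difference, so their counts are a description, to be read beside the 0.425% called and the 12.9% at an unadjusted p under 0.05 over all contigs. After myoD RNAi 94 contigs rose at least 2-fold, and edgeR called a difference for 0 of them, with 22 (23.4%) at an unadjusted p under 0.05. A count of 0 in 94 is near the share over all contigs and is no result about the rises. DESeq2 and voom, with weights per group or per library, also called 0 of the 94. Of the 88 also tested after nkx1-1 RNAi, 85 had a positive estimate and 45 were called higher, with a median of 0.89 after nkx1-1 RNAi. Over all contigs 297 of 16598 (1.79%) were called higher after nkx1-1 RNAi, and 104 to 519 with 1 library left out. The share of positive estimates over all contigs was not counted. The difference was called for 8 of the 17 contigs that fell at least 2-fold after myoD RNAi. Their median nkx1-1 effect was −0.23. Of 16 tested, 1 was called lower, a count too small to set against the 2.08% over all contigs. The count of 8 was the same with DESeq2 and with voom. After nkx1-1 RNAi the difference was called for 1 of 45 contigs that rose at least 2-fold, dd_Smed_v4_19327_0_1, again a count too small to set against that share, and for 3 of 7 that fell. For the 45 rises the median difference was 0.02. Of the 34 tested after myoD RNAi, 33 were called higher there, against 844 of 16352 contigs (5.16%) in all. The filter on low counts ran on the 12 libraries of that schedule. A rare contig passes it more easily if myoD RNAi raises it, so the 33 are a description. The same holds for the 88 tested after nkx1-1 RNAi. Whether rises and falls themselves differ in these shares was not tested. The median SE of the difference was 0.37 for rises and 0.35 for falls after myoD RNAi, and 0.40 and 0.34 after nkx1-1 RNAi. Median effects of rises and falls were 1.27 and −1.67 after myoD RNAi, and 1.33 and −1.32 after nkx1-1 RNAi. Their median abundances were 1.6 and 3.36 CPM after myoD RNAi, and 1.08 and 1.67 CPM after nkx1-1 RNAi.

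Most contigs with a call in a single treatment had no called difference. These lists were chosen by an effect that enters the difference, so their counts are a description. They are to be read beside the 0.425% called and the 12.9% at an unadjusted p under 0.05 over all contigs tested. Of 978 contigs called only after myoD RNAi, 30 (3.07%) had a called difference, and 274 had an unadjusted p under 0.05. For 701 of the 978 the 95% interval of the difference included 0. Of 389 contigs called only after nkx1-1 RNAi, 32 (8.23%) had a called difference, 282 had an unadjusted p under 0.05, and for 107 the interval included 0. The shares of 3.07% and 8.23% cannot be ranked. The nkx1-1 calls behind the 389 ranged from 214 to 947 with 1 library left out, and the 32 from 15 to 77. The difference was measured less precisely than either effect: over the 16162 contigs tested in all 3 comparisons its median SE was 0.12 on the log2 scale, against 0.09 for the nkx1-1 effect and 0.07 for the myoD effect. The 95% interval of the difference had a median half-width of 0.26. It lay within 2-fold either way for 15127 of the 17159 contigs (88.2%) and within 1.5-fold for 11726 (68.3%). Over all contigs the difference was balanced, with a median of 0.01 and 51.3% of values above 0.

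The controls of the 2 schedules are part of the contrast. Between them, 5701 of 16262 contigs (35.1%) were called, of which 2965 were higher at 12 feedings (18.2%) and 2736 lower (16.8%). Among the 73 contigs the share was similar, at 27 (37.0%). Of these 27, 18 had the control difference opposite in sign to the difference of RNAi effects and 9 had it in the same sign. Both measures share the control animals, which enter them with opposite signs, so opposite signs are favoured for any contig. The sign split over all contigs was not counted, and this one is a description. The 19 falls after myoD RNAi held 11 of the 27, and the 26 falls after nkx1-1 RNAi held 8. Whether these counts depart from the 35.1% over all contigs was not tested.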

How the data were processed

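The authors deposited raw read counts per contig for 24 libraries, without normalization. They also deposited, per the file headers, for each RNAi group against its control, size-factor-scaled means (a signal value), a linear fold change (ratio of means), p-values and adjusted p-values. Only the ratio and adjusted p-value were used here, as the authors' values. Per the labels' protocols the library kit keeps strand. Per the submitters' processing notes the tools were DESeq, SAMtools, Bowtie 1.1.1, cutadapt 1.8 and CASAVA, with no role or order stated. For aligner and strand settings and the DESeq version, the status is: not given in the sources used here. Near-identical contigs may split or share reads, and without the strand setting overlapping antisense contigs cannot be separated.

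The main test ran on the deposited counts in R 4.3.3 with edgeR 4.0.16: filterByExpr, TMM scaling, and the quasi-likelihood F test without robust estimation. The difference was a contrast in 1 fit of 24 libraries in 4 groups, which share 1 spread per contig. Each RNAi effect was fitted on its own 12 libraries, and the controls on 11. Benjamini-Hochberg adjustment ran over all contigs tested in a fit, tests were two-sided, and the SE is the log2 value divided by the square root of F. Intervals use the t quantile of the fit. The rule for named contigs required an adjusted p under 0.05 for the difference, a mean of at least 1 CPM and no overlap of deviations (log2 CPM, prior count 2) between nkx1-1 and myoD animals. In each pattern the 2 largest positive and 2 largest negative differences were taken, and patterns of 5 or fewer contigs were named whole. Groups, tests and this rule were chosen with earlier results of these data known. The test was tried on simulated counts with known changes. DESeq2 1.42.0 and limma 3.58.1 (voom) served as alternatives. Replicates differed by more than sampling noise in each of 61 within-group pairs (chi-square per degree of freedom 4.18 to 103). Nothing in the labels beyond the tissue field says how animals were reared, so p-values measure the spread between these libraries.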

Additional observations from a re-analysis of the deposited data

Results flagged for a closer look

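Within each group, the gap between the most extreme library and its nearest neighbour was compared with the range of the group, for the total counts and for the CPM of the 19 named contigs. Of 80 sets of values, 6 stood out, and about 4 would by chance (1 in 20). Among 10-feeding controls, replicate 6 had 17375822 counts in total, while its group mates had 13597429 to 14981573. For dd_Smed_v4_19327_0_1, 10-feeding control replicate 2 had 3.55 CPM and the others 2.21 to 2.70 CPM. For dd_Smed_v4_940_0_1, 12-feeding control replicate 3 had 160 CPM and the others 245 to 271 CPM, and for dd_Smed_v4_356_0_1 the same animal had 103 CPM and the others 167 to 188 CPM. For dd_Smed_v4_14095_0_1, nkx1-1 RNAi replicate 7 had 0.592 CPM and the others 0.971 to 1.24 CPM. For dd_Smed_v4_10577_0_1, nkx1-1 RNAi replicate 3 had 23.5 CPM and the others 20.1 to 21.4 CPM.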

How the results depend on the processing

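The 73 called differences became 156 with DESeq2, 130 with voom weighted per library, 157 at an adjusted p under 0.1 and 22 with a 2-fold minimum, and 46 to 136 when 1 library was left out. The count was 76 with RLE scaling, 62 without a filter, 83 with robust estimation and 77 with voom weighted per group. With the replicate number within a schedule as a replicate block it was 30, 17 positive and 13 negative, and 25 of the 73 were among them with the same sign. In that fit nkx1-1 RNAi replicates 6 and 7 have no control of their number and add nothing to the nkx1-1 effect. Deviations of same-numbered libraries had correlations of −0.145 to 0.0128 over 5 pairs at 12 feedings and −0.171 to 0.170 over 6 pairs at 10 feedings. With so few pairs, these values cannot tell whether the numbers pair animals for some contigs. The 643 calls after nkx1-1 RNAi became 1042 with DESeq2, 1849 in a fit on all 24 libraries, 52 with a 2-fold minimum, 12 with the replicate block and 214 to 947 with 1 library left out. The 1232 calls after myoD RNAi became 111 with a 2-fold minimum, 1034 in the fit on all 24 libraries and 1023 to 1266 with 1 library left out. The 5701 calls between controls became 132 with a 2-fold minimum and 4575 to 6963 with 1 library left out. The causes were not tested. Contigs with only nkx1-1 called numbered 15 to 77 and those with only myoD called 20 to 43 when 1 library was left out. Of 608 values of the 19 named contigs under 32 alternatives, 0 changed sign, 523 stayed under an adjusted p of 0.05 and 85 did not. Low counts limit the rarest contigs.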
